A study of Arabidopsis thaliana with 22 samples.

Results

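AT1G68526 and AT2G25510 are a pair of protein-coding Arabidopsis genes known here by locus number only. They were chosen on their measured values, as the most raised and the most lowered named transcript in mock-treated ost1-2 sal1-8 leaves relative to mock-treated wild type leaves. They are 2 of 13143 tested transcripts that carry the name of a single gene, on an array of 38408 probe sets. No function is given to either gene here, because the tables used name them by locus alone.

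Leaf RNA was hybridized to 22 Affymetrix Arabidopsis Gene 1.0 ST arrays, which report each transcript as a log2 fluorescence intensity. ost1-2 sal1-8, sal1-8 and wild type each had 3 arrays after ABA and 3 after mock treatment, while ost1-2 had 2 per treatment. sal1-8, labelled alx8, is a loss-of-function allele of SAL1 in the Col-0 background, and ost1-2 is a mutant allele of OST1 in the Ler background. Wild type is labelled as a Col-0 by Ler F1 hybrid, and ost1-2 sal1-8 descends from homozygous F2 plants of the cross between both mutants. ABA-treated plants were sprayed with 20 µM ABA and mock-treated plants with the solvent. The sample labels give 45 min of treatment and their protocol 2 h, at a plant age of 30 days. The methods describe biological triplicates with a single leaf per sample. Arrays are named below by the number in their sample label. An F1 of inbred lines is genetically uniform, whereas the arrays labelled wild type lay near different parent lines at 20 of 66 genes described below, so the label is given as stated and was not tested.

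SAL1 is a phosphatase that breaks down the nucleotide PAP, a chloroplast stress signal that builds up when SAL1 is lost and changes nuclear gene expression. OST1 is a protein kinase that carries the ABA signal in guard cells and closes stomata. Col-0 and Ler are laboratory ecotypes that differ in sequence at many genes, and some genes are expressed in the leaves of only one of them. No array of Col-0 or Ler wild type is among the samples, so an effect of sal1-8 and an effect of a Col-0 allele cannot be told apart in sal1-8 plants, and the same holds for ost1-2 and Ler alleles in ost1-2 plants. Transcripts of SAL1 and OST1 themselves were not analysed here.

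Among the arrays that chose it, AT1G68526 gave log2 intensities of 10.35, 10.37 and 10.61 in ost1-2 sal1-8 mock leaves, against 2.89, 3.12 and 3.80 in wild type mock leaves. The means differed by 7.17 on the log2 scale, and the next most raised transcripts were AT3G21660 at 6.01 and AT3G04410 at 5.47. AT2G25510 gave 2.57, 2.76 and 3.33 in ost1-2 sal1-8 mock leaves, against 10.76, 10.58 and 11.04 in wild type mock leaves. Its difference was -7.90, followed by AT1G66100 at -7.70 and AT4G07825 at -5.83. These differences are a description of the choice and carry no test. The tests below use only comparisons without ost1-2 sal1-8 mock and wild type mock arrays, with a single limma model over all 22 arrays as the source of the spread. To be called, a transcript needed a fold change above 1.5 and a p under 0.05 after Benjamini-Hochberg adjustment over every transcript tested.

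AT1G68526 was bright in every array that carried sal1-8 and dim in every other array. After ABA it gave 10.96, 10.74 and 10.77 in ost1-2 sal1-8 (arrays 129, 121 and 113). sal1-8 gave 10.79, 10.41 and 10.25 after ABA and 10.01, 10.63 and 10.56 after mock treatment. The bright arrays thus spanned less than 1 log2 unit, and within them ost1-2 sal1-8 ABA lay above both mock groups. ost1-2 gave 3.42 and 3.90 after ABA and 3.11 and 3.76 after mock treatment. Wild type gave 3.37, 5.28 and 3.76 after ABA, of which the middle value, from array 126, was the highest among the dim arrays. The bright arrays placed AT1G68526 above 97.1 to 98.6% of all probe sets, and the dim arrays placed it above 23.5 to 58.2%. No detection call was used for these arrays, so whether the dim levels of AT1G68526 and AT2G25510 exceed background was not tested. Each log2 difference against a dim group is therefore a difference of measured intensity and not a measured fold of transcript. Whether the probes of either gene bind RNA of Col-0 and Ler alleles alike was not tested, so a dim value need not mean less RNA. In whole leaves, fewer cells that express a gene and less RNA per cell cannot be told apart.

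AT2G25510 was dim in every array that carried ost1-2 and bright in every other array. In ost1-2 sal1-8 it gave 3.33, 2.86 and 2.97 after ABA. sal1-8 gave 10.90, 10.45 and 9.11 after ABA and 9.51, 10.35 and 9.39 after mock treatment. These sal1-8 values spread more widely than those of AT1G68526 in the same leaves. ost1-2 gave 3.44 and 2.40 after ABA and 4.14 and 3.31 after mock treatment. Wild type gave 10.34, 11.25 and 10.84 after ABA, within or above the range of sal1-8. The bright arrays placed AT2G25510 above 94.2 to 99.1% of all probe sets, and the dim arrays above 15.6 to 43.0%.

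**Figure D1:**
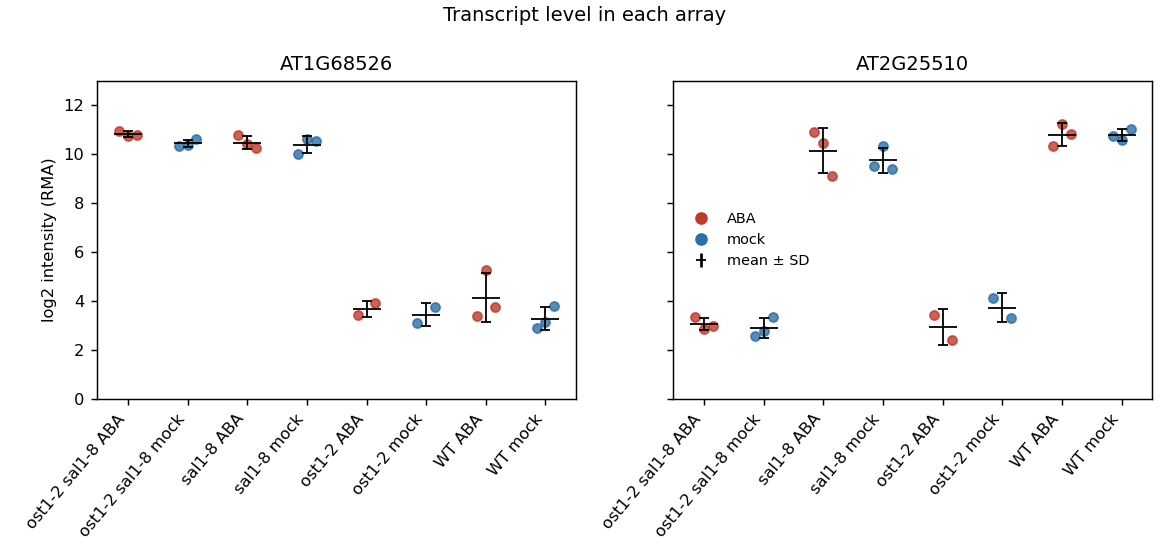
Log2 intensity of AT1G68526 (left) and AT2G25510 (right) in each array, with ABA in red, mock in blue, and a bar for the mean ± SD of each group (n = 3, or 2 in ost1-2). AT1G68526 lies at 10.01 or above in the 12 arrays that carry sal1-8 and at 5.28 or below in the other 10, and AT2G25510 lies at 4.14 or below in the 10 arrays that carry ost1-2 and at 9.11 or above in the other 12.

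From the highest mean to the lowest, AT1G68526 stood at 10.82 ± 0.12 in ost1-2 sal1-8 ABA, 10.48 ± 0.27 in sal1-8 ABA, 10.44 ± 0.15 in ost1-2 sal1-8 mock and 10.40 ± 0.34 in sal1-8 mock (SD, n = 3 each). Below the step came wild type ABA at 4.14 ± 1.01 (SD, n = 3), ost1-2 ABA at 3.66 ± 0.33 and ost1-2 mock at 3.44 ± 0.46 (SD, n = 2 each) and wild type mock at 3.27 ± 0.47 (SD, n = 3). From the lowest mean to the highest, AT2G25510 stood at 2.89 ± 0.40 in ost1-2 sal1-8 mock (SD, n = 3), 2.92 ± 0.74 in ost1-2 ABA (SD, n = 2), 3.05 ± 0.25 in ost1-2 sal1-8 ABA (SD, n = 3) and 3.72 ± 0.59 in ost1-2 mock (SD, n = 2). Above the step came sal1-8 mock at 9.75 ± 0.52, sal1-8 ABA at 10.15 ± 0.93, wild type mock at 10.79 ± 0.23 and wild type ABA at 10.81 ± 0.45 (SD, n = 3 each). In both orders, neighbouring groups overlapped in their arrays everywhere but at the step.

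The first question was whether the difference that chose the genes was also present in the ABA-treated arrays, which the choice did not use. AT1G68526 was higher in ost1-2 sal1-8 than in wild type after ABA, by a log2 difference of 6.69 ± 0.36 (SE) with a limma adjusted p of 1.53e-10. This was the largest increase of all transcripts tested, of which 17.0% were called higher. AT2G25510 was lower, with a log2 difference of -7.76 ± 0.40 (SE) and a limma adjusted p of 1.01e-10. It was the largest decrease, where 9.80% of transcripts were called lower. In the order of their numbers the arrays were divided into stretches wherever the treatment changed. A further split was made between arrays 121 and 126, both after ABA. With the stretch as a block the differences were 6.62 and -7.43. Over all alternatives, each array left out among them, they lay between 6.13 and 7.26 for AT1G68526 and between -8.04 and -7.43 for AT2G25510.

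Each single mutant passed the test against wild type at 1 of the genes, sal1-8 at AT1G68526 and ost1-2 at AT2G25510. In sal1-8, AT1G68526 was higher than in wild type after ABA (log2 6.35 ± 0.36, SE, limma adjusted p = 4.18e-10), where 12.5% of transcripts were called higher and 23.6% in either direction. AT2G25510 differed there by -0.66 with a 95% interval of -1.49 to 0.18 and did not pass the test (limma adjusted p = 0.224), and leaving out single arrays moved it between -1.03 and -0.14. In ost1-2, AT2G25510 was lower than in wild type after ABA (log2 -7.89 ± 0.44, SE, limma adjusted p = 2.05e-09), where 4.70% of transcripts were called lower and 10.6% in either direction. AT1G68526 differed by -0.48 with an interval of -1.31 to 0.36 (limma adjusted p = 0.508), and by -0.98 with array weights (limma adjusted p = 0.0666). Over all alternatives its adjusted p lay between 0.0666 and 0.893. For mock leaves, where wild type took part in the choice, the differences are given without a test. They were 7.13 for AT1G68526 and -1.04 for AT2G25510 in sal1-8, and 0.16 and -7.07 for the same genes in ost1-2.

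The double mutant passed the test against 1 parent line at each gene, against ost1-2 at AT1G68526 and against sal1-8 at AT2G25510. Relative to sal1-8 after ABA, AT1G68526 differed by 0.34 with an interval of -0.41 to 1.09 in ost1-2 sal1-8 (limma adjusted p = 0.626). AT2G25510 was lower in the same comparison (log2 -7.10 ± 0.40, SE, limma adjusted p = 8.16e-10), where 2.60% of transcripts were called lower and 5.40% in either direction. Relative to ost1-2 after ABA, AT1G68526 was higher in ost1-2 sal1-8 (log2 7.16 ± 0.40, SE, limma adjusted p = 7.1e-10), where 9.11% of transcripts were called higher and 13.2% in either direction. AT2G25510 differed by 0.13 with an interval of -0.80 to 1.06 (limma adjusted p = 0.892). Both intervals leave room for a difference of up to about 1 log2 unit.

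Both genes were higher in sal1-8 than in ost1-2. After ABA the log2 difference was 6.82 ± 0.40 for AT1G68526 and 7.23 ± 0.44 for AT2G25510 (SE, limma adjusted p = 1e-09 and 1.72e-09). After mock treatment it was 6.96 ± 0.40 and 6.03 ± 0.44 (SE, limma adjusted p = 5.85e-10 and 1.28e-08). Of all transcripts, 11.5% were called higher after ABA and 13.9% after mock treatment. The genes parted in the double mutant and in the hybrid, with AT1G68526 lying near the sal1-8 level in the double mutant and near the ost1-2 level in wild type, and AT2G25510 the other way round.

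The wild type arrays were also set against the midpoint of sal1-8 and ost1-2, which is a comparison with a hybrid only if the F1 label holds. After ABA, wild type lay below the log2 midpoint for AT1G68526 (log2 -2.94 ± 0.32, SE, limma adjusted p = 8.36e-06), where 8.24% of transcripts were called lower. It lay 4.27 ± 0.36 above the midpoint for AT2G25510 (SE, limma adjusted p = 4.87e-07), where 6.30% were called higher. AT2G25510 had the largest such excess of all transcripts tested. On the linear intensity scale, where the dim parent adds little, wild type after ABA reached 286% of the parental midpoint for AT2G25510. For AT1G68526 it reached 2.86%. In both comparisons 1 parent was dim, and for AT1G68526 wild type was dim as well. At each gene, wild type lay near 1 parent and far from the other in the tests above. A call against the midpoint followed from those tests and is no separate evidence.

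A response to ABA was called for neither gene in sal1-8 or ost1-2. In sal1-8, ABA-treated leaves differed from mock-treated leaves by 0.08 for AT1G68526 and 0.41 for AT2G25510 (limma adjusted p = 0.961 and 0.751), and 2.12% of transcripts were called in either direction. In ost1-2 the differences were 0.22 and -0.80 (limma adjusted p = 0.925 and 0.666), with 0.0363% of transcripts called. Both genes were dim in ost1-2, so a decrease after ABA may not be visible there, and the difference of the responses shares this limit. The response of sal1-8 minus that of ost1-2 was -0.14 for AT1G68526 and 1.21 ± 0.63 (SE) for AT2G25510 (limma adjusted p = 0.951 and 0.428), with 0.167% called. Without a test, ABA against mock gave 0.86 and 0.02 in wild type and 0.38 and 0.16 in ost1-2 sal1-8 for AT1G68526 and AT2G25510 in that order. Stretches of array numbers were cut where the treatment changed, so none holds both treatments. ABA and mock are thus never compared within a stretch, and no fixed block was fitted to these responses. With the stretch as a random block, AT1G68526 and AT2G25510 gave 0.08 and 0.40 in sal1-8 and 0.24 and -0.80 in ost1-2.

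**Figure D2:**
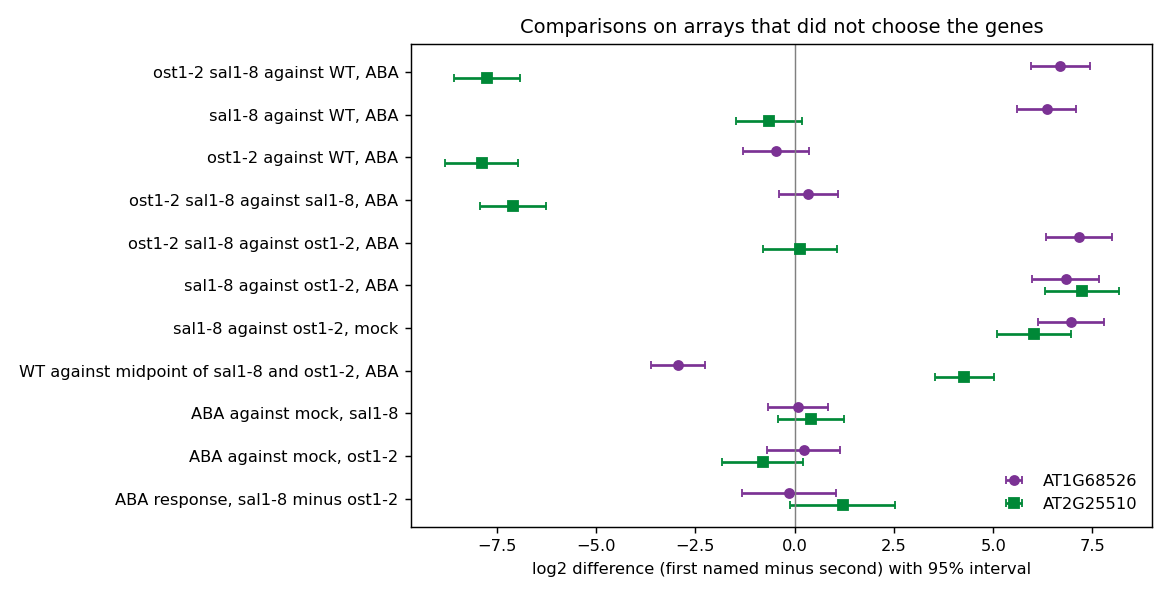
Log2 differences of AT1G68526 (circles) and AT2G25510 (squares) with 95% intervals in the 11 comparisons that use neither ost1-2 sal1-8 mock nor wild type mock arrays. The 3 comparisons of ABA responses span 0 for both genes, sal1-8 against ost1-2 lies between 6.03 and 7.23 for both, and ost1-2 sal1-8 against wild type lies at 6.69 for AT1G68526 and -7.76 for AT2G25510.

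The separation of arrays was ranked among the 13135 genes with a single tested locus, as a description that includes the arrays of the choice. All 12 arrays with sal1-8 lay above the other 10 for 665 genes (5.06%), and below them for 211. The gap between the lowest carrier and the highest other array was 4.73 for AT1G68526, the widest of all, followed by AT3G45660 at 4.00, and 18 genes had a gap over 3. All 10 arrays with ost1-2 lay below the other 12 for 77 genes (0.586%), and above them for 13. AT2G25510 had the widest gap, 4.97, followed by AT2G07777 at 4.55, and 4 genes had a gap over 3.

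The genes most like AT1G68526 across the 22 arrays were AT2G18100, AT2G20970, AT4G27580, AT3G45660 and AT3G62320, with Pearson's r of 0.990, 0.989, 0.986, 0.986 and 0.986. Over the 16 arrays that the choice did not use, r was 0.984 to 0.993. The 5 genes were picked on all 22 arrays, those 16 included, so that r is no separate check. All are bright in ost1-2 sal1-8 and sal1-8 and dim elsewhere. AT2G18100, for example, gave 9.02 to 9.24 in ost1-2 sal1-8 ABA and 9.14 to 9.53 in sal1-8 ABA, against 4.78 to 5.05 in ost1-2 ABA and 4.85 to 5.38 in wild type ABA. Between ost1-2 sal1-8 and wild type after ABA these 5 genes were higher by 2.87 to 5.03 on the log2 scale.

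Most like AT2G25510 were AT2G07777, AT4G20480, AT2G07667, nad1 and AT4G22310, with r of 0.983, 0.965, 0.962, 0.962 and 0.951. Over the same 16 arrays, with the same limit, r was 0.950 to 0.979. nad1 encodes a subunit of the mitochondrial NADH dehydrogenase in the mitochondrial genome. It has several probe sets on the array, and the others were not among the most alike. Group means of nad1 were only 4.54 to 5.24 in sal1-8 and wild type, against 2.25 to 3.01 in the other groups. AT2G07777 gave 3.50 to 4.08 in ost1-2 sal1-8 ABA and 3.76 to 4.17 in ost1-2 ABA, against 8.86 to 9.53 in sal1-8 ABA and 9.18 to 9.71 in wild type ABA. AT4G22310 followed the same order with a smaller step, of -1.04 between ost1-2 sal1-8 and wild type after ABA, while the other 4 lay between -2.79 and -5.63. Correlations here run over arrays of shared groups and say nothing of shared function.

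**Figure D3:**
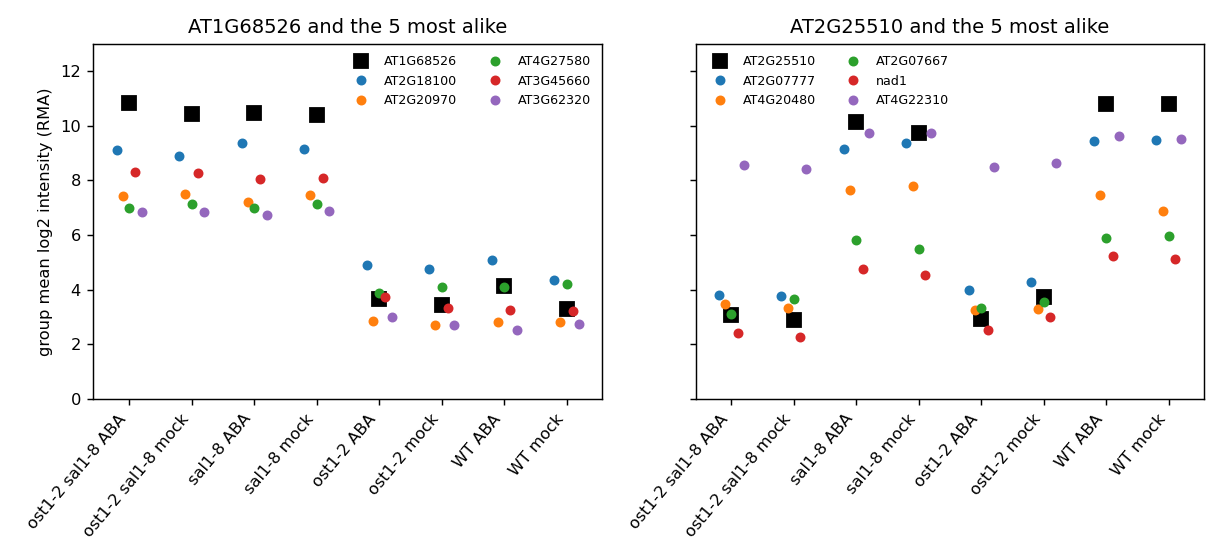
Group mean log2 intensity of AT1G68526 (left) and AT2G25510 (right), as black squares, with the 5 genes whose values were most alike over 22 arrays, as coloured circles. The genes on the left are high in the 4 groups that carry sal1-8, and those on the right are low in the 4 groups that carry ost1-2, with AT4G22310 showing the smallest step.

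AT1G68526 lies on chromosome 1 between AT1G68520, the B-box factor gene BBX14, and AT1G68530, which is KCS6, an enzyme gene of cuticular wax synthesis. AT2G25510 lies on chromosome 2 between AT2G25500 and AT2G25520. The nearest genes on either side with a tested probe set named with them alone, 3 each way, showed no step of that size. Among the 12 of them, the widest difference between sal1-8 mock and ost1-2 mock was -1.69, at AT1G68600. Around AT1G68526 their r with it ran between -0.43 and 0.84, and the highest belonged to JAG, a regulator of lateral organ shape, which was higher by 0.69 in ost1-2 sal1-8 than in wild type after ABA. Around AT2G25510 r ran between -0.47 and 0.54. AT2G25520, the adjacent gene, differed by -0.47 in the same comparison and was not called.

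The origin of the chromosome segments in the double mutant was not read directly. As a description, genes that differed between sal1-8 and ost1-2 were counted by the parent that the ost1-2 sal1-8 mock level lay nearer to. Of 1907 such genes 488 (25.6%) lay nearer to ost1-2. Within 100 genes on each side this held for 2 of 17 at AT1G68526 (11.8%, Wilson 95% interval 3.29 to 34.3%) and 2 of 8 at AT2G25510 (25.0%, 7.15 to 59.1%). At SAL1, where the double mutant was selected for the Col-0-derived mutant allele, it held for 0 of 12 (Wilson 95% interval up to 24.2%). At OST1, where the double mutant was selected for the Ler-derived mutant allele, it held for 1 of 12 (8.33%, 1.49 to 35.4%). Most levels around OST1 thus lay nearer to sal1-8 despite the selected allele, and no origin is read from such counts at AT1G68526 or AT2G25510. The Wilson intervals treat neighbouring genes as independent. Such genes lie close together and were read from the same arrays, so the intervals do not measure a spread between plants. Shares by chromosome ran from 7.59% on chromosome 5 to 46.5% on chromosome 4.

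In 66 genes, both members among them, all sal1-8 and all ost1-2 arrays were more than 3 log2 units apart, 52 with the higher level in sal1-8 and 14 in ost1-2. A position was given to each array, with 0 at the mean of the lower parent and 1 at that of the higher, and an array under 0.333 was taken as near the lower parent and an array over 0.667 as near the higher. This comparison was added after the data were seen. ost1-2 sal1-8 arrays were all near the higher parent in 42 genes and all near the lower in 14. Wild type arrays were all near the lower parent in 30 genes and all near the higher in 6. AT1G68526 belonged to 27 genes that were higher in sal1-8, near that level in the double mutant and near the lower parent in wild type. AT2G25510 belonged to 3 genes that were higher in sal1-8, near the ost1-2 level in the double mutant and near the sal1-8 level in wild type, the others being AT2G07777 and AT4G20480. In 3 genes the ost1-2 sal1-8 arrays, and in 20 genes the wild type arrays, lay near different parents in different arrays, and neither AT1G68526 nor AT2G25510 was among them.

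**Figure D4:**
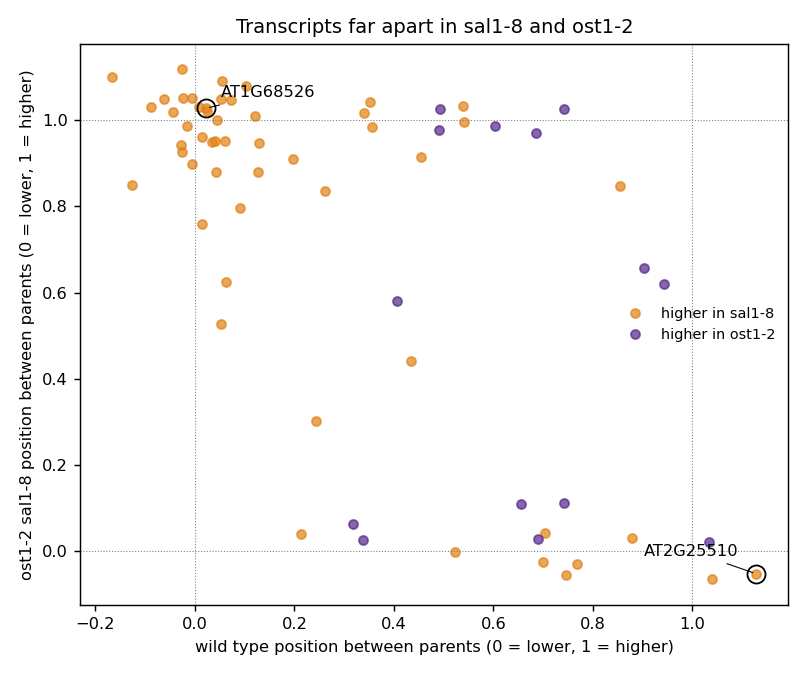
Mean position of wild type (x axis) and of ost1-2 sal1-8 (y axis) between the parents, where 0 is the lower and 1 the higher parent mean, for 66 genes whose sal1-8 and ost1-2 arrays lie more than 3 log2 units apart. AT1G68526 sits at the upper left among 27 genes of its kind, and AT2G25510 at the lower right with 2 others.

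Markers of leaf and other tissues were measured for few genes, where measured means having a tested probe set named with that gene alone. The other listed genes may still be on the array. RCA, the activase of Rubisco and the only one measured of 9 leaf mesophyll markers, lay between 11.4 and 12.1 in all 22 arrays. Of 5 root markers only PYK10, a beta-glucosidase of endoplasmic reticulum bodies, was measured. Like AT1G68526, PYK10 was higher in every array that carried sal1-8 than in every other array. Unlike AT1G68526, PYK10 was called lower in ost1-2 sal1-8 than in sal1-8 after ABA, with a difference of -2.20 (limma adjusted p = 0.0327). It ranged from 5.79 to 9.05 in ost1-2 sal1-8, 7.91 to 9.88 in sal1-8, 3.56 to 4.02 in ost1-2 and 3.39 to 4.57 in wild type, and its part in the result was not tested. FAMA, the only one measured of 5 guard cell markers, ranged from 5.58 to 7.54. After ABA, every mutant line was called higher than wild type for FAMA, by 1.55 (ost1-2), 1.01 (double mutant) and 0.78 (sal1-8). The wild type mean of FAMA was 5.90 after ABA and 7.10 after mock treatment. Mutant means after mock treatment lay near the wild type mock mean, at 7.30 (ost1-2), 7.13 (double mutant) and 6.86 (sal1-8). These mock differences from wild type were not tested. FAMA was called lower in sal1-8 than in ost1-2 after ABA, with a difference of -0.77. None of 5 flower and silique markers was measured. Of 9 genes known to respond to loss of SAL1 or to PAP only ZAT10, a zinc finger repressor of stress responses, was measured, with a difference of 0.33 between ost1-2 sal1-8 and wild type after ABA that did not pass the test (limma adjusted p = 0.605). After ABA, ZAT10 was called higher than in ost1-2 in ost1-2 sal1-8 by 2.09 and in sal1-8 by 2.47 (limma adjusted p = 0.00586 and 0.00104). It was called lower in ost1-2 than in wild type after ABA, with a difference of -1.77 (limma adjusted p = 0.0263). ZAT10 was not called in sal1-8 against wild type after ABA (0.70, limma adjusted p = 0.235). After mock treatment it was not called in sal1-8 against ost1-2 (0.24, limma adjusted p = 0.73). Its mock means were 8.65 ± 0.97 in sal1-8, 8.41 ± 0.17 in ost1-2, 8.13 ± 0.44 in ost1-2 sal1-8 and 7.36 ± 0.29 in wild type (SD). The mock differences of ZAT10 from wild type were not tested. AOP3 was the only one measured of 10 listed genes known to differ between Col-0 and Ler. This glucosinolate gene is known to be active in Ler and silent in Col-0 leaves. AOP3 gave 9.52 to 10.80 in ost1-2 sal1-8, 3.06 to 3.76 in sal1-8 and 9.88 to 11.46 in ost1-2, against 3.80 to 9.99 in wild type.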

How the data were processed

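The deposited values are log2 intensities of 22 arrays. The authors made them with the RMA procedure of oligo 1.28.0 in R 3.1.0, which corrects background, applies quantile normalization and combines the probes of a transcript by median polish. Their own tests used limma 3.20.1. Of 38408 probe sets, 16722 were named with a single gene, 759 with several and 20927 with none. Named probe sets were ranked by their brightest group mean, and as many were tested as the authors had tested, down to a brightest group mean of 3.02. Of these, 13143 carry a single gene. The array's genome build is not given in the sources used here, and gene order and chromosomes are those of RefSeq on TAIR10.1. All 22 columns were used.

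The model was fitted in limma 3.58.1 (R 4.3.3), as 1 fit with a coefficient per group, empirical Bayes and Benjamini-Hochberg adjustment per comparison. The script was tested on simulated data. The members, the gene lists and the rule for named genes were chosen with earlier results of these data known. Named genes are the members, the 5 most alike by Pearson's r, 3 measured neighbours on each side, the next ranks of the choice and the measured list genes. Alternatives were the probe sets tested, the groups in the fit, trend and robust empirical Bayes, array weights, centring, stretches of array numbers with the same treatment as blocks, window widths and leaving out each array. The number of arrays limits the precision.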

Additional observations from a re-analysis of the deposited data

How the results depend on the processing

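All 372 alternative values of the 12 called results of AT1G68526 and AT2G25510 kept their direction and stayed called, with a highest limma adjusted p of 0.00356. The midpoint comparisons among them follow from the tests of each single mutant against wild type. Of 304 alternative values of the 10 results not called, none was called and 294 kept their direction. In both sets many alternatives changed only the spread, the transcripts tested or arrays outside the comparison. Those leave the difference itself unmoved, so its direction was fixed there. With each array centred on its median, the response to ABA in sal1-8 minus that in ost1-2 was 0.035 for AT1G68526. Leaving out single arrays gave -0.47 to 0.19 for that difference, -0.11 to 0.20 for ABA against mock in sal1-8, -0.10 to 0.55 for ABA against mock in ost1-2 and -0.86 to 0.10 for ost1-2 against wild type after ABA. For AT2G25510 in ost1-2 sal1-8 against ost1-2 after ABA it gave -0.39 to 0.65, and for the same gene 0.03 to 0.93 for ABA against mock in sal1-8, -1.32 to -0.28 in ost1-2 and 0.69 to 1.73 for the difference of these responses. The cause was not tested.

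Counts of called transcripts moved more. ABA against mock in ost1-2 gave 5 called, 251 with array weights and 1 to 46 without single arrays, and the difference of responses gave 23, 811 and 0 to 92. ABA against mock in sal1-8 gave 292, and 122 to 914 over all settings. ost1-2 against wild type after ABA gave 1464, 388 with only the groups compared, 2466 over all probe sets of the array and 262 without ost1-2 array 136. Over all probe sets the counts for ost1-2 sal1-8 and sal1-8 against wild type after ABA were 7041 and 6000, in place of 3699 and 3254. Without 1 array, ost1-2 sal1-8 against sal1-8 after ABA gave 383 in place of 744 (array 129), ost1-2 sal1-8 against ost1-2 951 in place of 1825 (array 136), sal1-8 against ost1-2 1747 in place of 3067 after ABA (array 136) and 2510 in place of 3774 after mock treatment (array 107), and wild type against the midpoint 1155 in place of 2004 (array 118). With double mutant ABA arrays in place of mock, the share of genes nearer to ost1-2 was 35.3% around AT1G68526 and 37.5% around AT2G25510. With 200 genes on each side and mock arrays it was 11.1% and 40.9%, and with 50 genes and ABA arrays 50.0% at both, of 6 and 4 genes.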

Other observations

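Wild type arrays did not take 1 position between the parent lines at every gene. Of the 66 genes with parents more than 3 log2 units apart, 3 had ost1-2 sal1-8 arrays near the lower parent and others near the higher, and 20 had wild type arrays near both. AOP3 gave 8.09, 3.80 and 9.99 in wild type mock arrays 130, 114 and 105. AT1G66100, next in rank to AT2G25510 among lowered transcripts, gave 3.65, 10.29 and 10.65 in wild type ABA arrays 134, 126 and 118, against 11.08, 10.17 and 11.39 in wild type mock. AT1G68526 and AT2G25510 were not among those 20 genes.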
